A study of Mus musculus with 9 samples.

Results

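The 48 genes described here encode the proteins that license replication origins and run the replication fork. They were listed by name, from the origin recognition complex to the chromatin assembly factor, and each symbol was found once among the 49315 gene identifiers of the count table. RNA was measured by poly-A sequencing in 9 libraries of pancreatic stellate cells, the fibroblast-like cells of the pancreas, from C57BL6 mice. All 9 libraries come from cells that had immortalised by spontaneous outgrowth and that carried lentiviral Cas9 with 1 guide, selected with puromycin and not cloned.

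HIF1a-ko hypoxia cells carried a guide against Hif1a, whose protein is the part of the HIF-1 transcription factor that low oxygen stabilises, and were kept at 0.5% oxygen for 48 h (n = 3 libraries). R26 hypoxia cells carried a guide against R26, the Rosa26 locus that is widely used as a neutral target, and had the same oxygen and time (n = 3). R26 normoxia cells carried that same control guide and were kept at 20% oxygen for 48 h (n = 3). Libraries of HIF1a-ko cells in normoxia are not used here, so an effect of the guide cannot be told apart from an effect of the guide in low oxygen, and no interaction was fitted. With 1 guide for each target, the target cannot be told apart from the guide or the selected cells that carried it. The labels do not say whether the libraries of a group are separate cultures. P-values therefore measure the spread between these libraries, which may be technical.

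DNA replication begins when the origin recognition complex (ORC), with Cdc6 and Cdt1, loads the MCM helicase onto DNA in an inactive form during G1. In S phase the kinase Cdc7 with its activator Dbf4, and the factors Cdc45 and GINS, turn MCM into a moving helicase, and polymerases, the PCNA clamp and its RFC loader copy the strands behind it. Transcripts of many of these genes are known to rise as cells pass from G1 into S phase, and E2F transcription factors are well-known regulators of this programme.

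Values are counts scaled to a common library size with TMM factors (CPM), and total counts were 43837809 to 107840223 per library. HIF1a-ko hypoxia 1, R26 hypoxia 3 and R26 normoxia 3 had at least 88451200 counts and are called deeper, and the other 6 libraries are called shallower. Hif1a itself had 123.3, 116.9 and 125.0 CPM in HIF1a-ko hypoxia, 177.8, 168.7 and 207.1 CPM in R26 hypoxia and 194.0, 192.4 and 224.8 CPM in R26 normoxia. The HIF1a-ko libraries were thus the 3 lowest, with a log2 fold change over R26 hypoxia of -0.60 ± 0.09 (SE, adjusted p = 0.000358, edgeR's quasi-likelihood test), and a transcript level does not show how much protein was lost. Summed over 10 fibroblast or stellate markers, the level was 13110.3 to 13585.2 CPM in HIF1a-ko hypoxia, 19398.6 to 20965.0 CPM in R26 hypoxia and 16883.8 to 18432.7 CPM in R26 normoxia. Col1a1, Col1a2 and Vim carried most of this sum. Of the 10 markers, 1 (Acta2) was called higher and 5 lower in HIF1a-ko hypoxia than in R26 hypoxia, against 22.0% and 23.8% of all genes. The deeper libraries stood apart from the shallower ones in summed epithelial, leukocyte and endothelial markers. Endothelial markers summed to 9.31 to 13.8 CPM in the deeper libraries and 14.5 to 23.0 CPM in the shallower ones. Epithelial markers summed to 14.1 to 46.5 CPM in the 3 deeper libraries and 57.8 to 107.7 CPM in the 6 shallower ones, and leukocyte markers to 9.4 to 17.6 CPM and 28.9 to 47.9 CPM. The keratin gene Krt8 was at 0.00945 to 0.0225 CPM in the deeper libraries and at 15.3 to 23.7 CPM in the shallower ones, and Krt18 was at 0 in the deeper and at 3.82 to 7.70 CPM in the shallower. Krt19 (10.9 to 41.6 and 20.1 to 63.7 CPM) and Muc1 (1.22 to 3.99 and 1.12 to 3.44 CPM) overlapped between the depth classes. These were the epithelial markers called between the R26 groups, higher in R26 hypoxia at log2 1.52 and 1.26 (adjusted p = 0.00931 and 0.000794 in edgeR's test). The second principal component of all genes also set the deeper libraries (28.7 to 36.3) apart from the shallower (-21.8 to -10.6). The endothelial and the acinar or islet lists summed to at most 23.0 CPM in any library, with Ins1 and Ins2 at 0 throughout and Cpa1 at 0 in HIF1a-ko hypoxia and R26 normoxia, and none of the fibroblast or stellate markers was at 0. Each group holds 1 deeper and 2 shallower libraries, and counts with and without the deeper ones are given below. The part of the fibroblast marker difference between groups was not tested.

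Promoter letters are shown for 4 members as examples of members whose windows hold letters that E2F factors are known to bind. RefSeq windows on GRCm38.p6, 250 bases before to 50 after a gene's start, matched 39 of the 48 members, in 48 windows. The E2F letters searched, on both strands and with overlaps allowed, were TTTCCCGC, TTTCGCGC, TTTGCCGC and TTTGGCGC. They stood in 16 of 39 member genes (41.0%), against 704 of 27025 genes (2.6%). The lines below give the 160 bases before the RefSeq start, 5′ to 3′ on the gene's strand, with the matches in capitals.
Cdc6: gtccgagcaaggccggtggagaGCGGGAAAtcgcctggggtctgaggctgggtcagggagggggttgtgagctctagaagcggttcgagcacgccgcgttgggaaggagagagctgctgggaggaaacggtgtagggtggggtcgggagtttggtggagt
Mcm5: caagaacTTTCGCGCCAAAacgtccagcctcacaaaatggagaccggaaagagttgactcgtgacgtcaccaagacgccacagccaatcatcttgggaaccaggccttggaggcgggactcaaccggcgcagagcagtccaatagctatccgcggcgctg
Mcm6: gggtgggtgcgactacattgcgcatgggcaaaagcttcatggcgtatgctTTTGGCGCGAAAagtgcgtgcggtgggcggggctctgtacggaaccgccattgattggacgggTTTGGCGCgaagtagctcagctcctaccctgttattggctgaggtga
Pola1: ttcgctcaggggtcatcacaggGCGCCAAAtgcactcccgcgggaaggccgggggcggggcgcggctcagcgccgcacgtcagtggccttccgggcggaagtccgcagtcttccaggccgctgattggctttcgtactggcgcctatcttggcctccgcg

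These windows lie at chr11:98907991-98908150 on the plus strand for Cdc6, chr8:75109349-75109508 on the plus strand for Mcm5, chr1:128359706-128359865 on the minus strand for Mcm6 and chrX:93632156-93632315 on the minus strand for Pola1. The GENCODE gene of Cdc6 starts 350 bases before the RefSeq start, so its window lies inside that gene's span, and it overlaps no annotated exon. Cdc6 and Pola1 hold 1 match each, Mcm5 holds 2 that overlap, and Mcm6 holds 3, of which 2 overlap. A match is a string of letters and not a shown binding site. The letters ACGTG or GCGTG, the core of the element that HIF binds, stood in 58.3% of member windows and 43.8% of all 32851 windows, and CCAAT in 52.1% of member windows and 37.4% of all windows.

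The plot of all members by library gives the whole picture first. The HIF1a-ko hypoxia libraries were high for nearly the whole list, and the R26 hypoxia libraries were at or somewhat under R26 normoxia. Of the 48 members, 46 were higher in HIF1a-ko hypoxia than in R26 hypoxia and 0 were lower, at an adjusted p under 0.05 in edgeR's quasi-likelihood test with Benjamini-Hochberg adjustment over 18211 genes. Among all genes tested, 22.0% were called higher and 23.8% lower in that comparison. The members' median log2 fold change was 1.45, against -0.015 for all genes tested, and 36 members were at least 2-fold higher, as were 5.63% of all genes. In bulk RNA, a larger share of cells in S phase and more of each RNA per cell cannot be told apart, nor can a smaller share and less RNA per cell.

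**Figure D1:**
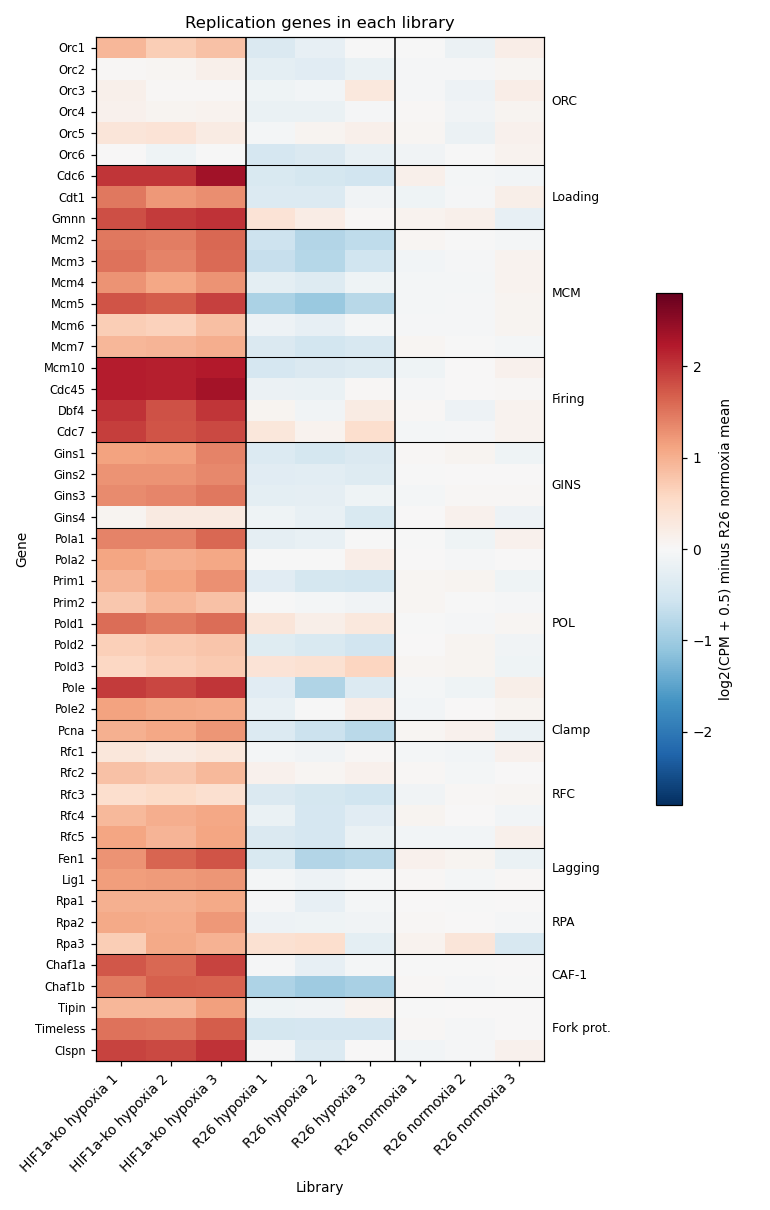
Each row is 1 of the 48 genes and each column 1 of the 9 libraries. Colour gives log2(CPM + 0.5) minus the mean of that value over the 3 R26 normoxia libraries, so red is above and blue below R26 normoxia. The mean over all 48 genes is 1.13, 1.12 and 1.22 in the HIF1a-ko hypoxia libraries and -0.21, -0.29 and -0.18 in the R26 hypoxia libraries.

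The change of R26 hypoxia over R26 normoxia was smaller and mixed. In this comparison 2 members were higher, Pold1 and Pold3, and 21 were lower, against 12.8% of all genes higher and 12.4% lower. The members' median log2 fold change was -0.24, against -0.009 for all genes. Same-numbered R26 libraries deviated together from their group means (correlations 0.52, 0.53 and 0.85). Unlike numbers 1 and 2 did so too (0.56 and 0.41), and number 3 is the deeper library of both groups. Pairing by number thus cannot be told apart from depth. The 6 R26 libraries were also fitted alone, with and without the replicate number as a block. With the replicate block 4 members were higher and 24 lower, against 22.1% and 19.6% of all 17387 genes tested, and without it 2 were higher and 17 lower, against 13.0% and 9.83%. The 9 members gained by the block between these fits were Cdt1, Mcm4, Mcm6, Cdc7, Gins4, Pole, Rfc4, Rfc5 and Rpa3, and 0 were lost. Over R26 normoxia, HIF1a-ko hypoxia had 43 members higher and 0 lower, against 19.5% and 21.9% of all genes, with a median of 1.15. That comparison changes both the guide and the oxygen, which cannot be told apart in it. These 3 comparisons share libraries pairwise, so their values are set side by side and not correlated. Among the 34 members that share at most 5% of their sequence with other genes, 32 were higher in HIF1a-ko hypoxia than in R26 hypoxia, and 2 were higher and 14 lower in R26 hypoxia than in R26 normoxia.

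In the 6 shallower libraries alone, 47 members were higher in HIF1a-ko hypoxia than in R26 hypoxia, against 25.9% of the 18159 genes tested there. Between the R26 groups 2 were higher and 23 lower in that fit, against 15.4% and 14.6%. With depth class as a term in the fit of all 9 libraries, 46 members were higher in HIF1a-ko hypoxia than in R26 hypoxia (28.4% of all genes) and 44 than in R26 normoxia (25.6%), and 4 were higher and 25 lower in R26 hypoxia than in R26 normoxia (18.7% and 19.5%). That term added calls for Orc4, Cdt1, Gmnn, Cdc7, Gins3 and Gins4 between the R26 groups. The 3 deeper libraries, 1 a group, allow no test. In them the members' median difference of HIF1a-ko hypoxia from R26 hypoxia was 1.34 in log2(CPM + 0.5), against 1.45 in the shallower libraries. For R26 hypoxia against R26 normoxia it was -0.17, against -0.23. These values were computed after the data had been seen, and the same medians over all genes were not computed.

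The complexes moved by different amounts, as the plot of group means shows. For HIF1a-ko hypoxia over R26 hypoxia, the median log2 fold change was 0.30 over the 6 ORC genes, 1.83 over the 6 MCM genes, 1.69 over the 4 GINS genes, 1.20 over the 9 polymerase genes, 1.01 over the 5 RFC genes and 1.12 over the 3 RPA genes. For R26 hypoxia over R26 normoxia, the median was -0.19 for ORC, -0.57 for MCM, -0.30 for GINS, -0.06 for the polymerases, -0.34 for RFC and -0.10 for RPA. ORC thus had the lowest median of these 6 complexes in the first comparison, and MCM the highest in the first and the lowest in the second. Differences between complexes were not tested.

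**Figure D2:**
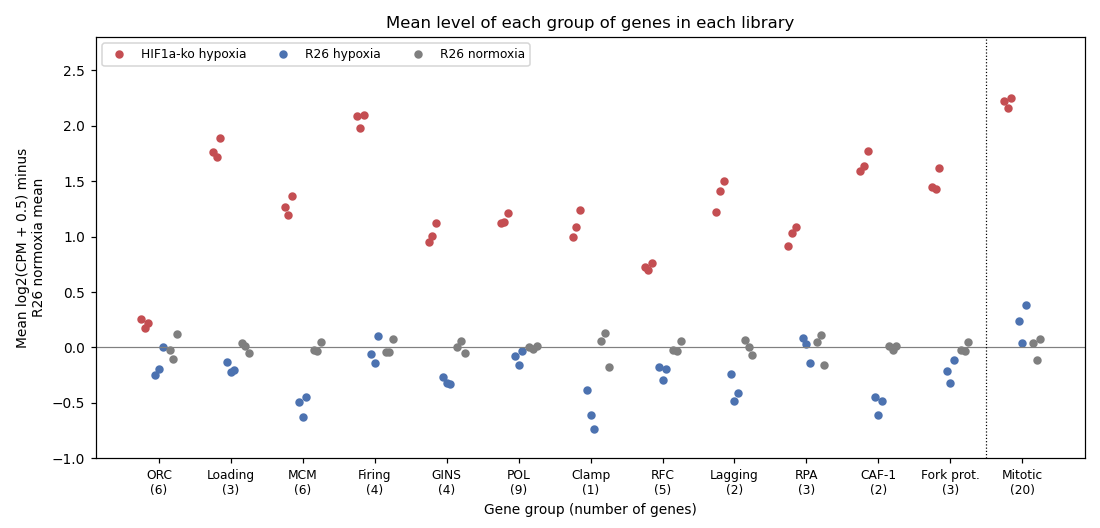
Each point is 1 library. The vertical axis is the mean over a group of genes of log2(CPM + 0.5) minus its R26 normoxia mean, and the number of genes is under each group, with mitotic genes at the right for comparison. The HIF1a-ko hypoxia libraries are at 0.18 to 0.26 for ORC and at 1.20 to 1.37 for MCM, and the R26 hypoxia libraries are at -0.63 to -0.45 for MCM and at 0.04 to 0.38 for the mitotic genes.

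ORC marks origins. For HIF1a-ko hypoxia over R26 hypoxia its genes lay at log2 fold changes of 0.02 to 0.34, except Orc1 at 1.10. Orc3, a core subunit, had 43.1, 39.6 and 39.7 CPM in HIF1a-ko hypoxia, 35.6, 37.1 and 47.6 CPM in R26 hypoxia and 37.8, 35.3 and 44.1 CPM in R26 normoxia. The 3 groups overlapped, and the log2 fold changes were 0.02 ± 0.12 for HIF1a-ko hypoxia over R26 hypoxia (SE, adjusted p = 0.902 in edgeR's test) and 0.04 ± 0.12 for R26 hypoxia over R26 normoxia (adjusted p = 0.867). The deeper library was the highest of its group in all 3 groups.

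Orc4 had 45.7, 44.7 and 45.5 CPM in HIF1a-ko hypoxia, 36.8, 36.8 and 41.4 CPM in R26 hypoxia and 43.0, 39.1 and 44.7 CPM in R26 normoxia. It was 1.18-fold higher in HIF1a-ko hypoxia than in R26 hypoxia, with no overlap (adjusted p = 0.0139 in edgeR's test, but 0.0528 without R26 hypoxia 2), while the 2 R26 groups overlapped. Orc6, needed for loading, had 45.9, 41.5 and 45.2 CPM in HIF1a-ko hypoxia, 32.7, 33.9 and 39.3 CPM in R26 hypoxia and 42.5, 45.1 and 48.4 CPM in R26 normoxia. R26 hypoxia was the low group for Orc6, with a log2 fold change of 0.32 ± 0.08 for HIF1a-ko hypoxia over R26 hypoxia and of -0.36 ± 0.08 for R26 hypoxia over R26 normoxia (SE, adjusted p = 0.00885 and 0.0104 in edgeR's test). HIF1a-ko hypoxia and R26 normoxia overlapped, with a log2 fold change of -0.04 (adjusted p = 0.766).

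Orc2 had 17.1, 17.5 and 18.6 CPM in HIF1a-ko hypoxia, 13.9, 13.3 and 14.6 CPM in R26 hypoxia and 16.5, 16.4 and 17.5 CPM in R26 normoxia. As for Orc6, R26 hypoxia was the low group, and HIF1a-ko hypoxia and R26 normoxia overlapped. Orc2 was higher by 0.34 ± 0.06 in HIF1a-ko hypoxia than in R26 hypoxia and at -0.27 ± 0.06 in R26 hypoxia relative to R26 normoxia (log2, SE, adjusted p = 0.00178 and 0.0144 in edgeR's test). The R26 call was lost without R26 hypoxia 2 or R26 normoxia 3 (adjusted p = 0.056 to 0.0575), and 26.7% of Orc2 sequence is shared with other genes, chiefly Nif3l1 on the other strand. Orc1, the subunit that varies through the cell cycle, was the ORC gene with the highest fold change: it averaged 9.02 ± 0.818 CPM in HIF1a-ko hypoxia, 4.20 ± 0.651 CPM in R26 hypoxia and 4.94 ± 0.658 CPM in R26 normoxia (SD, n = 3 each). Orc1 was 2.14-fold higher in HIF1a-ko hypoxia than in R26 hypoxia (adjusted p = 0.000209). Orc5 was 1.21-fold higher (adjusted p = 0.0303), a call lost without any 1 of HIF1a-ko hypoxia 1, HIF1a-ko hypoxia 2, R26 hypoxia 1 and R26 hypoxia 2 (0.0653 to 0.105).

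Cdc6, the ATPase that joins ORC to load the helicase (chromosome 11, 98907801 to 98923940, plus strand, GRCm38), had 18, 18 and 23.0 CPM in HIF1a-ko hypoxia, 2.96, 2.77 and 2.68 CPM in R26 hypoxia and 4.61, 3.93 and 3.88 CPM in R26 normoxia. No libraries of different groups overlapped, and the order was HIF1a-ko hypoxia, R26 normoxia, R26 hypoxia. Its 7.03-fold difference between HIF1a-ko hypoxia and R26 hypoxia was the highest of the 48 (log2 2.81 ± 0.13, SE, adjusted p = 2.53e-07 in edgeR's test). Relative to R26 normoxia, R26 hypoxia was at a log2 fold change of -0.56 ± 0.12 (adjusted p = 0.00914).

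Cdt1, the other loading factor, had 47.8, 40.1 and 42.1 CPM in HIF1a-ko hypoxia, 12.9, 12.8 and 15.8 CPM in R26 hypoxia and 15.4, 16.4 and 19.1 CPM in R26 normoxia. Cdt1 was 3.12-fold higher in HIF1a-ko hypoxia than in R26 hypoxia (adjusted p = 3.35e-06), with the R26 groups overlapping (log2 fold change -0.29 ± 0.11, SE, adjusted p = 0.0976). That last value was called with the replicate block (adjusted p = 0.00494) and without R26 hypoxia 3 (0.0297). Gmnn encodes geminin, the inhibitor that binds Cdt1 after licensing. Its transcript averaged 20.9 ± 1.70 CPM in HIF1a-ko hypoxia, 6.06 ± 0.824 CPM in R26 hypoxia and 5.17 ± 0.768 CPM in R26 normoxia (SD, n = 3 each). The loading factor Cdc6 and the licensing inhibitor Gmnn were therefore both higher in HIF1a-ko hypoxia than in R26 hypoxia, while in R26 hypoxia over R26 normoxia Cdc6 was lower and Gmnn was not called (log2 0.23, adjusted p = 0.274, but 0.0399 with depth class as a term).

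All 6 MCM genes, which encode the ring of the replicative helicase, were higher in HIF1a-ko hypoxia than in R26 hypoxia. In all 6 the 3 R26 hypoxia libraries also lay below the 3 R26 normoxia libraries, an order seen in 19.1% of all genes, and 5 of the 6 were called lower. Mcm5 (chromosome 8, 75109569 to 75128439, plus strand) had 121.8, 116.7 and 135.2 CPM in HIF1a-ko hypoxia, 19.1, 17.1 and 20.5 CPM in R26 hypoxia and 34.3, 34.7 and 37.7 CPM in R26 normoxia. It was 6.58-fold higher in HIF1a-ko hypoxia than in R26 hypoxia (log2 2.72 ± 0.08, SE, adjusted p = 5.47e-08) and was at -0.91 ± 0.08 in R26 hypoxia relative to R26 normoxia (adjusted p = 7.34e-05). Both differences are many times their SE, and Mcm5 stood first among the 6 in both.

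Mcm2 (chromosome 6, 88883474 to 88898780, minus strand) had 121.2, 118.5 and 132.9 CPM in HIF1a-ko hypoxia, 28.9, 24.2 and 26.3 CPM in R26 hypoxia and 45.2, 42.9 and 42.0 CPM in R26 normoxia. Mcm3 (chromosome 1, 20802968 to 20820312, minus strand) had 77.6, 70.8 and 82.1 CPM in HIF1a-ko hypoxia, 17.1, 15.2 and 18.1 CPM in R26 hypoxia and 25.4, 26.4 and 29.0 CPM in R26 normoxia. These 2 genes kept the same order of groups without overlap, at log2 fold changes of 2.23 ± 0.07 and 2.19 ± 0.09 for HIF1a-ko hypoxia over R26 hypoxia. For R26 hypoxia over R26 normoxia, Mcm2 was at -0.71 ± 0.07 and Mcm3 at -0.68 ± 0.08 (SE, adjusted p = 0.000143 and 0.00048 in edgeR's test).

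Mcm7 (chromosome 5, 138164583 to 138172422, minus strand) had 131.4, 132.9 and 138.9 CPM in HIF1a-ko hypoxia, 51.8, 48.0 and 49.9 CPM in R26 hypoxia and 71.0, 68.6 and 66.5 CPM in R26 normoxia. It was 2.69-fold higher in HIF1a-ko hypoxia than in R26 hypoxia and at a log2 fold change of -0.46 ± 0.05 in R26 hypoxia relative to R26 normoxia (SE, adjusted p = 0.000135), with the 3 groups apart. Of its sequence 23.3% is shared with other genes, chiefly Gm5487. Ap4m1, which overlaps Mcm7 by 321 bases on the other strand, was at -0.67 (log2) in HIF1a-ko hypoxia relative to R26 hypoxia. Mcm4 (chromosome 16, 15623897 to 15637400, minus strand) had 71.5, 62.9 and 71.1 CPM in HIF1a-ko hypoxia, 24.2, 22.9 and 27.0 CPM in R26 hypoxia and 28.3, 28.5 and 31.5 CPM in R26 normoxia. Mcm4 was 2.77-fold higher in HIF1a-ko hypoxia than in R26 hypoxia, and its R26 difference of -0.25 ± 0.08 only just passed (adjusted p = 0.0457). That call was lost on leaving out any 1 of 7 libraries, all but HIF1a-ko hypoxia 2 and R26 hypoxia 3 (adjusted p = 0.0659 to 0.163).

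Mcm6 (chromosome 1, 128331590 to 128359664, minus strand) had 100.9, 97.5 and 112.9 CPM in HIF1a-ko hypoxia, 56.2, 53.5 and 60 CPM in R26 hypoxia and 60.7, 60.7 and 66.4 CPM in R26 normoxia. It had the smallest changes of the 6, at 1.83-fold for HIF1a-ko hypoxia over R26 hypoxia (adjusted p = 7.36e-06) and a log2 fold change of -0.15 ± 0.07 for R26 hypoxia over R26 normoxia (SE, adjusted p = 0.163). With the replicate block that last value was -0.13 (adjusted p = 0.0296). Mcm6 is also the printed promoter with the most E2F matches, and a relation between matches and changes was not tested.

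**Figure D3:**
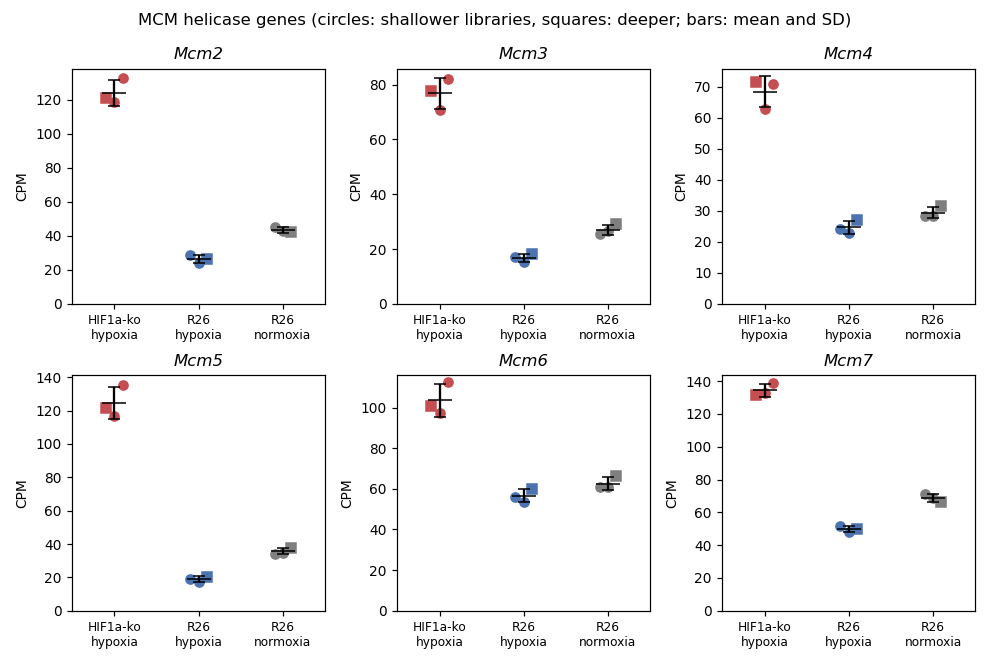
Each panel is 1 MCM gene, with CPM from 0 on the vertical axis and 1 point per library (squares for the deeper libraries), and the bars are the mean and SD of the 3 libraries. In every panel the HIF1a-ko hypoxia libraries are above both R26 groups, and R26 hypoxia lies below R26 normoxia, from 18.9 against 35.6 CPM on average for Mcm5 to 56.6 against 62.6 CPM for Mcm6.

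Per kilobase of exon, the MCM genes were more alike in HIF1a-ko hypoxia than in either R26 group, which the plot of levels per length shows. The highest MCM level was 1.75 times the lowest in HIF1a-ko hypoxia, 3.19 times in R26 hypoxia and 2.49 times in R26 normoxia, and 2.38, 3.45 and 2.96 times when the longest transcript was used as the length. In HIF1a-ko hypoxia, Mcm5 was at 31.2 ± 2.39 and Mcm7 at 30.4 ± 0.893 CPM per kb (SD, n = 3), which do not differ beyond their spread, and the other 4 were at 17.9 to 22.2. In R26 hypoxia, Mcm6 at 12.1 ± 0.701 and Mcm7 at 11.3 ± 0.437 CPM per kb led, with overlapping ranges of mean ± SD. Mcm5 stood there at 4.73 ± 0.427 beside Mcm3 at 4.47 ± 0.393. In R26 normoxia, Mcm7 at 15.5 ± 0.514 and Mcm6 at 13.4 ± 0.71 CPM per kb led, and the other 4 were at 6.23 to 8.91. With either length, Mcm6 and Mcm7 had the highest means in both R26 groups, and Mcm5 and Mcm7 in HIF1a-ko hypoxia. Such overlaps are of ranges over the libraries, and genes were not compared within each library. The overlaps also depended on the length. With the longest transcript, Mcm7 stood alone at the top of HIF1a-ko hypoxia, at 45.4 ± 1.33 CPM per kb. Mcm5 at 36.8 ± 2.82 and Mcm2 at 35.5 ± 2.19 then had overlapping ranges below it. In R26 hypoxia, Mcm7 at 16.8 ± 0.653 then stood above Mcm6 at 13.0 ± 0.751 (SD, n = 3).

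**Figure D4:**
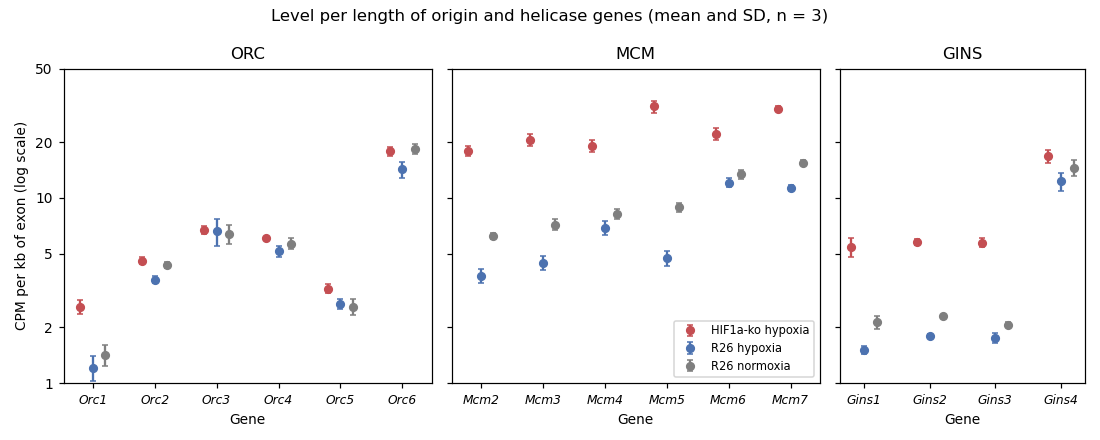
The vertical axis is CPM per kb of summed exons on a log scale, with the mean and SD of 3 libraries for each gene and group. Gins4 and Orc6 stand above the rest of their complexes in all 3 groups, and the spread between MCM genes is narrowest in HIF1a-ko hypoxia. Of the 4097 exon bases of Gins2, 2758 overlap Gse1 on the other strand. Reads there cannot be told apart, so the place of Gins2 beside Gins4 is uncertain.

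Among the firing factors, which turn the loaded helicase on, all 4 genes were higher in HIF1a-ko hypoxia than in R26 hypoxia, with a median log2 fold change of 2.18. Mcm10, a scaffold of the starting fork, had 28.9, 28.5 and 29.5 CPM in HIF1a-ko hypoxia, 4.11, 4.36 and 4.51 CPM in R26 hypoxia and 5.36, 5.95 and 6.42 CPM in R26 normoxia. It was 6.69-fold higher in HIF1a-ko hypoxia than in R26 hypoxia (adjusted p = 5.33e-08 in edgeR's test) and at a log2 fold change of -0.45 ± 0.08 in R26 hypoxia relative to R26 normoxia (SE, adjusted p = 0.00339), with the 3 groups apart. Cdc45, a subunit of the active helicase, had 21.1, 20.6 and 23.0 CPM in HIF1a-ko hypoxia, 3.70, 3.64 and 4.31 CPM in R26 hypoxia and 4.09, 4.18 and 4.26 CPM in R26 normoxia. The R26 groups overlapped for Cdc45, and its 5.16-fold difference between HIF1a-ko hypoxia and R26 normoxia was the highest of the 48 genes in that comparison (adjusted p = 2.47e-07).

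Cdc7, the kinase of origin firing, had 21.3, 18.8 and 20.1 CPM in HIF1a-ko hypoxia, 6.61, 5.67 and 7.44 CPM in R26 hypoxia and 5.02, 5.09 and 5.60 CPM in R26 normoxia. Here R26 hypoxia lay above R26 normoxia in all 3 libraries, at a log2 fold change of 0.33 ± 0.11 (SE, adjusted p = 0.0535), which was called with the replicate block (0.35, adjusted p = 0.0138) and without R26 hypoxia 2 (adjusted p = 0.0192). Dbf4, its activating subunit, had 58.3, 50 and 57.6 CPM in HIF1a-ko hypoxia, 14.8, 13.2 and 16.6 CPM in R26 hypoxia and 14.5, 12.8 and 15 CPM in R26 normoxia. The R26 groups overlapped for Dbf4 (log2 fold change 0.07, adjusted p = 0.678), and HIF1a-ko hypoxia was 3.72-fold above R26 hypoxia. Neither kinase subunit was thus lower in R26 hypoxia, whereas 5 of the 6 genes of the MCM helicase, their substrate, were.

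GINS, the third component of the active helicase beside Cdc45 and MCM, had 4 of 4 genes higher in HIF1a-ko hypoxia than in R26 hypoxia, and Gins4 differed in size from the rest. Gins4 had 20.7, 23.6 and 23.7 CPM in HIF1a-ko hypoxia, 18.2, 16.9 and 14.6 CPM in R26 hypoxia and 19.9, 21.5 and 17.8 CPM in R26 normoxia. HIF1a-ko hypoxia overlapped with R26 normoxia, and was 1.37-fold above R26 hypoxia (adjusted p = 0.00529). The deeper library was the lowest for Gins4 in each group. Over R26 normoxia the adjusted p in edgeR's test was 0.154, but 0.0103 with depth class as a term and 0.0374 in the 6 shallower libraries. Between the R26 groups it was 0.109 (log2 -0.25), but 0.00407 and 0.0493 in these 2 fits and 0.0138 with the replicate block. Gins1, Gins2 and Gins3 were 3.60-fold, 3.19-fold and 3.27-fold higher in HIF1a-ko hypoxia than in R26 hypoxia. Per kilobase of exon, Gins4 was at 16.8 ± 1.30 in HIF1a-ko hypoxia, 12.3 ± 1.34 in R26 hypoxia and 14.6 ± 1.39 in R26 normoxia, while Gins3 was at 5.74 ± 0.314 in HIF1a-ko hypoxia, 1.75 ± 0.108 in R26 hypoxia and 2.07 ± 0.0700 in R26 normoxia (CPM per kb, SD, n = 3). Gins1 and Gins2 were lower in R26 hypoxia than in R26 normoxia (log2 -0.50 and -0.35, adjusted p = 0.0136 and 0.00276). The Gins1 call was lost without R26 hypoxia 2, R26 normoxia 1 or R26 normoxia 2 (0.0503 to 0.0539), and Gins2 shares 65.4% of its sequence with other genes, chiefly Gse1 on the other strand.

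Of the 9 polymerase and primase genes, 8 were higher in HIF1a-ko hypoxia than in R26 hypoxia. Pola2, the B subunit of the polymerase alpha that starts each strand, had 59.0, 55.8 and 58.7 CPM in HIF1a-ko hypoxia, 27.1, 27.3 and 31.3 CPM in R26 hypoxia and 27.7, 26.7 and 27.7 CPM in R26 normoxia. It was 2.02-fold above R26 hypoxia, and the R26 groups overlapped. Pole, the catalytic subunit of the leading-strand polymerase epsilon, averaged 47.1 ± 2.49 CPM in HIF1a-ko hypoxia, 8.24 ± 1.62 CPM in R26 hypoxia and 11.9 ± 1.23 CPM in R26 normoxia (SD, n = 3 each), a 5.70-fold difference between the first 2 and the highest of the polymerase genes. Pole2, the second subunit of the same enzyme, was 2.21-fold higher (adjusted p = 3.07e-05).

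The genes of polymerase delta, which copies the lagging strand, did not move together in R26 hypoxia. Pold3, an accessory subunit (chromosome 7, 100082111 to 100121565, minus strand), had 23.7, 25.5 and 26.4 CPM in HIF1a-ko hypoxia, 20.7, 21.3 and 24.1 CPM in R26 hypoxia and 16.3, 16.7 and 14.4 CPM in R26 normoxia. Both low-oxygen groups lay above R26 normoxia and overlapped with each other. Pold3 was 1.40-fold higher in R26 hypoxia than in R26 normoxia (log2 0.48 ± 0.08, SE, adjusted p = 0.00291), the highest value of the 48 in that comparison, and 1.14-fold for HIF1a-ko hypoxia over R26 hypoxia (0.19 ± 0.08, adjusted p = 0.0895). The last value was called without R26 hypoxia 3 or R26 normoxia 3 (adjusted p = 0.0318 to 0.0458), with library totals alone (0.0259) and in the 6 shallower libraries (0.31, adjusted p = 0.00272).

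Pold1, the catalytic subunit, had 63.7, 58.7 and 64.3 CPM in HIF1a-ko hypoxia, 27.0, 23.9 and 26.1 CPM in R26 hypoxia and 21.1, 20.7 and 22.0 CPM in R26 normoxia. The groups were apart in that order, with 2.42-fold for HIF1a-ko hypoxia over R26 hypoxia and 1.20-fold for R26 hypoxia over R26 normoxia (adjusted p = 3.72e-07 and 0.0116 in edgeR's test). Pold2, another accessory subunit, averaged 31.5 ± 1.25 CPM in HIF1a-ko hypoxia, 13.8 ± 0.878 CPM in R26 hypoxia and 18.8 ± 1.28 CPM in R26 normoxia. Its direction between the R26 groups was the opposite of that of Pold1 and Pold3 (log2 -0.45, adjusted p = 0.00195). Prim1 and Pole were also lower in R26 hypoxia than in R26 normoxia (log2 -0.45 and -0.53, adjusted p = 0.00804 and 0.0199), and the Pole call was lost without R26 normoxia 3 (0.0707).

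Pcna, the sliding clamp (chromosome 2, 132249162 to 132253314, minus strand), had 146.4, 155.1 and 172.4 CPM in HIF1a-ko hypoxia, 55.7, 47.5 and 43.2 CPM in R26 hypoxia and 75.6, 79.4 and 64.0 CPM in R26 normoxia. The 3 groups were apart, at 3.24-fold for HIF1a-ko hypoxia over R26 hypoxia (adjusted p = 2.37e-06) and a log2 fold change of -0.58 ± 0.11 for R26 hypoxia over R26 normoxia (SE, adjusted p = 0.00461). The deeper library was the lowest in each group, and 19.1% of Pcna sequence is shared with other genes, chiefly the copy Pcna-ps2. Rfc1, the large subunit of the clamp loader, had 75.5, 70.9 and 73.6 CPM in HIF1a-ko hypoxia, 57.8, 56.5 and 61.1 CPM in R26 hypoxia and 57.9, 57.2 and 65.7 CPM in R26 normoxia. It was 1.25-fold above R26 hypoxia in HIF1a-ko hypoxia (adjusted p = 0.00173), and the R26 groups overlapped. The small subunits Rfc2 to Rfc5 were 1.68-fold to 2.75-fold higher in HIF1a-ko hypoxia than in R26 hypoxia. Rfc3, Rfc4 and Rfc5 were lower in R26 hypoxia than in R26 normoxia (log2 -0.51, -0.34 and -0.37, adjusted p = 0.00166, 0.0318 and 0.0266). The Rfc4 call was lost without any 1 of HIF1a-ko hypoxia 2 and 3, R26 hypoxia 2 and 3 and R26 normoxia 1 and 2 (0.0541 to 0.111), and the Rfc5 call without R26 hypoxia 1, R26 hypoxia 2 or R26 normoxia 3 (0.0825 to 0.0976).

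Fen1, the nuclease that trims Okazaki fragments, had 16.3, 21.3 and 23.2 CPM in HIF1a-ko hypoxia, 4.70, 3.46 and 3.68 CPM in R26 hypoxia and 7.14, 6.87 and 5.70 CPM in R26 normoxia. The groups were apart, at 5.14-fold for HIF1a-ko hypoxia over R26 hypoxia and a log2 fold change of -0.74 ± 0.17 for R26 hypoxia over R26 normoxia (SE, adjusted p = 3.87e-06 and 0.0104). Of Fen1 sequence 76.7% is shared with other genes, and Gm10143, on the other strand over 1909 bases, was counted at 0.949 CPM in HIF1a-ko hypoxia, 0.473 CPM in R26 hypoxia and 0.41 CPM in R26 normoxia on average. Lig1, the ligase that seals the fragments, had 70.8, 71.1 and 74.1 CPM in HIF1a-ko hypoxia, 29.9, 28.2 and 29.7 CPM in R26 hypoxia and 31.5, 29.7 and 31.8 CPM in R26 normoxia. It was 2.46-fold above R26 hypoxia in HIF1a-ko hypoxia, and the R26 groups overlapped narrowly (log2 fold change -0.08, adjusted p = 0.261).

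RPA coats single-stranded DNA, and its 3 genes were higher in HIF1a-ko hypoxia than in R26 hypoxia, as were 22.0% of all genes. None was called between the R26 groups, where 12.8% of all genes were higher and 12.4% lower. With the replicate block, Rpa3 was called higher in R26 hypoxia than in R26 normoxia (log2 0.23, adjusted p = 0.0256 in edgeR's test). Rpa1, the large subunit, had 164.8, 163.8 and 173.0 CPM in HIF1a-ko hypoxia, 80.8, 69.9 and 79.7 CPM in R26 hypoxia and 82.8, 81.3 and 83.1 CPM in R26 normoxia. It was 2.18-fold above R26 hypoxia (adjusted p = 5.25e-07), and the R26 hypoxia libraries were just under R26 normoxia (log2 fold change -0.10, adjusted p = 0.242). Rpa3 was the most variable, at 22.4 ± 2.91 CPM in HIF1a-ko hypoxia, 13.9 ± 3.76 CPM in R26 hypoxia and 12.0 ± 3.27 CPM in R26 normoxia (SD, n = 3 each). Its 1.62-fold difference between HIF1a-ko hypoxia and R26 hypoxia (adjusted p = 0.0398) was not called without any 1 of HIF1a-ko hypoxia 2, HIF1a-ko hypoxia 3, R26 hypoxia 3 and R26 normoxia 1 (0.0589 to 0.118). In each group the deeper library was the lowest for Rpa3.

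Chaf1b, a subunit of the chromatin assembly factor CAF-1 that places histones behind the fork (chromosome 16, 93883901 to 93906115, plus strand), had 17.7, 20.5 and 20.4 CPM in HIF1a-ko hypoxia, 3.13, 2.82 and 3.03 CPM in R26 hypoxia and 6.30, 5.97 and 6.11 CPM in R26 normoxia. Its log2 fold change of -1.03 ± 0.09 for R26 hypoxia over R26 normoxia was the lowest of the 48 (SE, adjusted p = 5.81e-05), and HIF1a-ko hypoxia was 6.52-fold above R26 hypoxia (adjusted p = 6.03e-08), with the 3 groups apart. Chaf1a, the large subunit, had 83.5, 76.8 and 92.9 CPM in HIF1a-ko hypoxia, 24.4, 21.2 and 24.0 CPM in R26 hypoxia and 24.7, 24.6 and 25.2 CPM in R26 normoxia. It was 3.64-fold above R26 hypoxia in HIF1a-ko hypoxia, and R26 hypoxia was at -0.10 relative to R26 normoxia (adjusted p = 0.425), so of these 2 subunits Chaf1b alone passed the test between the R26 groups. Chaf1a shares 49.7% of its sequence with other genes, chiefly Ubxn6 on the other strand, which was at -0.24 (log2) for HIF1a-ko hypoxia over R26 hypoxia.

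The fork protection genes Tipin, Timeless and Clspn, which hold the helicase and polymerases together and signal stalled forks, were all higher in HIF1a-ko hypoxia than in R26 hypoxia. Tipin had 29.0, 28.9 and 33.4 CPM in HIF1a-ko hypoxia, 13.7, 13.8 and 16.1 CPM in R26 hypoxia and 14.8, 14.9 and 15 CPM in R26 normoxia. The R26 groups overlapped, and HIF1a-ko hypoxia was 2.09-fold above R26 hypoxia (adjusted p = 6.95e-06). Timeless, the partner of Tipin, averaged 33.0 ± 2.47 CPM in HIF1a-ko hypoxia, 7.57 ± 0.0426 CPM in R26 hypoxia and 10.7 ± 0.312 CPM in R26 normoxia (SD, n = 3 each). It was lower in R26 hypoxia than in R26 normoxia (log2 -0.50, adjusted p = 0.000722), while Tipin was not called (-0.03, adjusted p = 0.838). Clspn was 4.36-fold higher in HIF1a-ko hypoxia than in R26 hypoxia and not called between the R26 groups (adjusted p = 0.472).

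**Figure D5:**
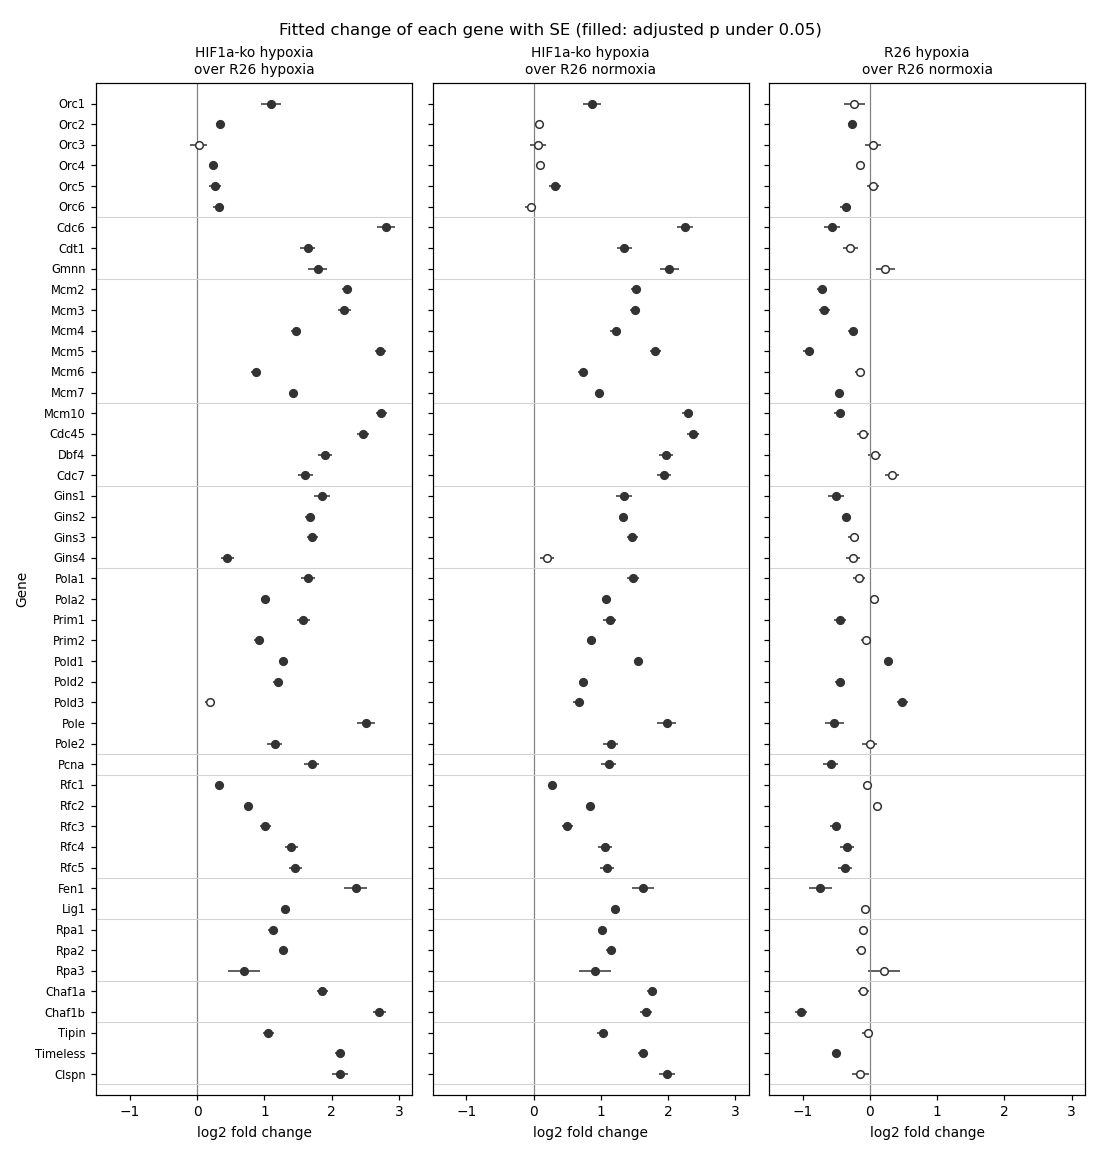
Each row is 1 gene, in the order of the text, and the points are log2 fold changes with their SE in the 3 comparisons, filled where the adjusted p is under 0.05. HIF1a-ko hypoxia is to the right of 0 for all but Orc2 to Orc6, Gins4 and Pold3 by at least 0.28 in both of its comparisons, and R26 hypoxia over R26 normoxia runs from -1.03 for Chaf1b to 0.48 for Pold3.

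The 16 members with an E2F match had a median log2 fold change of 1.36 for HIF1a-ko hypoxia over R26 hypoxia (0.02 to 2.81), and the 23 without one had a median of 1.46 (0.24 to 2.74). For R26 hypoxia over R26 normoxia the medians were -0.20 with a match and -0.27 without. Orc3 and Pold3, the members not called in the first comparison, both hold a match, the one of Orc3 lying 41 bases before its start. No test was made of these differences.

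A pair of neighbouring gene sets places these values in context. Of 40 other replication genes, 30 were higher and 3 lower in HIF1a-ko hypoxia than in R26 hypoxia (median log2 0.83), against 22.0% and 23.8% of all genes. Between the R26 groups, 2 were higher and 10 lower in R26 hypoxia (median -0.14), against 12.8% and 12.4% of all genes. Uhrf1, which brings DNA methylation to newly copied DNA, averaged 115.6 ± 5.9 CPM in HIF1a-ko hypoxia, 17.5 ± 1.72 CPM in R26 hypoxia and 26.2 ± 1.81 CPM in R26 normoxia (SD, n = 3 each), and Pclaf, a PCNA-binding protein, and Recql4, a helicase of origin firing, followed at 6.26-fold and 5.23-fold for HIF1a-ko hypoxia over R26 hypoxia. The 3 lower genes were Ciz1, Pold4 and Rnaseh2a, at log2 fold changes of -0.46, -0.37 and -0.25. Pold4, the smallest polymerase delta subunit, overlapped between the groups.

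The 20 mitotic genes were all higher in HIF1a-ko hypoxia than in R26 hypoxia (22.0% of all genes were), with a median log2 fold change of 2.00. Bub1, a checkpoint kinase, was at 2.36 and Cdk1, the mitotic kinase, at 1.55, the highest and lowest of the 20, and Aurkb and Top2a were at 2.27 and 2.26. Between the R26 groups, 5 mitotic genes were higher in R26 hypoxia and 0 were lower (median 0.21), whereas 2 replication members were higher and 21 lower (median -0.24), beside 12.8% of all genes higher and 12.4% lower. Cenpf, a kinetochore protein, was at 0.61, Mki67, a proliferation marker, at 0.43 and Ccnb2, a mitotic cyclin, at 0.39 in R26 hypoxia relative to R26 normoxia (adjusted p = 0.00435, 0.0169 and 0.0182 in edgeR's test). Mcm5 in the same libraries was at -0.91. Cdc20, an activator of the mitotic ubiquitin ligase, was at -0.10 (adjusted p = 0.356). The difference between the replication and mitotic sets was not tested. Cenpf and Mki67 were named after their values were seen.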

How the data were processed

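The authors deposited raw, whole-number read counts per Ensembl gene for 9 libraries. The tools listed in the submitters' processing notes are STAR, featureCounts, Trimmomatic, bcl2fastq 2.17 and DESeq2, on build GRCm38, and their settings, strand handling and annotation release are not stated there. The labelled library kit does not mark strand, so reads of genes that overlap on opposite strands cannot be told apart. Of 49315 identifiers, 48970 were paired with symbols of GENCODE M21. One column, R26 hypoxia 3, carries its title's parts in another order.

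The test was the quasi-likelihood test of edgeR 4.0.16 under R 4.3.3 (TMM, filterByExpr, glmQLFit and glmQLFTest, two-sided, all 9 libraries, group as the only term). The filter kept 18211 genes, all 48 members included, with at least 109 counts of a member in any library. Called means a Benjamini-Hochberg adjusted p under 0.05 over these genes, SE is the log2 fold change over the root of F, and SD is over 3 libraries. A gene's shared share is that of its 50-base stretches found in other genes. The members and lists were chosen with earlier results of these data known.

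Values per library were given for Mcm2 to Mcm7, for the 3 members with the highest fold change and the 3 with the lowest in each comparison and for the gene of highest CPM in each other subgroup, 28 members in all. Of the other replication and mitotic genes, the 3 highest and 3 lowest were named, 12 in all.

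Titles number the replicates. Deviations from the group mean of same-numbered libraries correlated at 0.52, 0.53 and 0.85 between R26 hypoxia and R26 normoxia. The replicate block took these numbers as pairs. R26 hypoxia 1 with R26 normoxia 2 also reached 0.56, and R26 hypoxia 2 with R26 normoxia 1 reached 0.41. The deeper library of both groups has number 3, so pairing and depth cannot be told apart. Alternatives were other scalings, no filter, DESeq2 1.42.0, depth as a term, the replicate block and leaving out libraries.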

Additional observations from a re-analysis of the deposited data

How the results depend on the processing

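Over 9 alternatives other than leaving out single libraries, no member reversed a call. The members higher in HIF1a-ko hypoxia numbered 44 to 47 over R26 hypoxia and 42 to 44 over R26 normoxia. All genes called higher numbered 3204 to 5165 and 2997 to 4662 in these comparisons. For R26 hypoxia over R26 normoxia, 2 to 4 members were higher and 16 to 25 lower, beside 2009 to 3843 and 1636 to 3554 of all genes. The fewest lower members (16) came with no filter on low counts. There 1636 of all 32750 genes tested were lower, against 2263 of 18211 in the main fit. Genes called between the R26 groups numbered 4591 in the fit of 9 libraries and 6959 with depth class as a term. In the 6 R26 libraries alone they numbered 3964, and 7259 with the replicate block. The ratio of the highest to the lowest MCM level per length was 2.38 in HIF1a-ko hypoxia and 2.96 in R26 normoxia with the longest transcript as length. Leaving out each library in turn gave 7195 to 8400 called genes and 44 to 47 called members for HIF1a-ko hypoxia over R26 hypoxia, 3287 to 4373 and 19 to 23 for R26 hypoxia over R26 normoxia, and 6309 to 7995 and 42 to 43 for HIF1a-ko hypoxia over R26 normoxia.

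Replicate numbers did not pair HIF1a-ko hypoxia with R26 hypoxia (correlations -0.63, 0.55 and -0.58) or with R26 normoxia (-0.60, 0.58 and -0.62). HIF1a-ko hypoxia 1 correlated instead with R26 hypoxia 3 (0.79) and R26 normoxia 3 (0.82), the other deeper libraries, so this block pairs unlike libraries. In fits of the 2 groups compared, the replicate block gave 44 members and 6761 genes called for HIF1a-ko hypoxia over R26 hypoxia, without Orc5 (adjusted p = 0.0621) and Rpa3 (0.0595), and 42 members and 6240 genes over R26 normoxia, without Orc5 (0.0695). The cause of these changes was not tested. Without R26 normoxia 2 or HIF1a-ko hypoxia 2, Orc5 was not called over R26 normoxia (0.0513 to 0.0552).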

Other observations

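With depth class as a term, 7 of the 48 members were higher in the 3 deeper libraries, against 12.3% of all genes, and 6 were lower, against 15.1% of all genes. Both counts are near the share over all genes.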
